A study of Homo sapiens with 6 samples.

Results

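The genes of cholesterol and fatty acid synthesis were followed in JJN3, a human multiple myeloma cell line, after exposure to WNK463, a compound that inhibits the kinases of the WNK family. The 32 genes were listed by name and role, with earlier results of these data known: 3 of sterol sensing, 7 of the mevalonate steps, 11 of the squalene and sterol steps, 3 of sterol transport and binding, and 8 of the lipogenic steps. They were 32 of the 60728 genes in the count table, and all 32 were among the 15548 genes that passed the filter on low counts. There were 3 groups of 2 RNA-seq libraries each: WNK463 for 6 h, WNK463 for 2 h, and the vehicle DMSO. All 6 libraries came from JJN3 labelled as wild type, a single line grown in serum-containing medium. The dose of WNK463 was recorded as 5 µM in the sample labels and as 1 µM in the series' design text, so it is not known which was used. The DMSO libraries were labelled as control without a time of their own, so WNK463 and time in culture cannot be told apart. The labels do not say that the libraries of a group came from separate cultures, and p-values therefore measure only the spread between these libraries, which may be technical.

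Cells make cholesterol from acetyl-CoA through mevalonate, the isoprenoid diphosphates, squalene and lanosterol. They make fatty acids from the same precursor through malonyl-CoA, followed by elongation and desaturation. Much of both pathways is transcribed under the SREBP factors, which stay in the endoplasmic reticulum with SCAP and INSIG proteins when sterols are plentiful. When sterols are scarce, SCAP carries SREBP to the Golgi, where proteases release the part that enters the nucleus and binds sterol regulatory elements, often beside sites for NF-Y (CCAAT box) and Sp1 (GC box). Plasma cells and myeloma cells depend on lipid synthesis for the wide endoplasmic reticulum in which they make immunoglobulin.

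The promoters of 6 members are shown because these genes stand for the patterns described below: SREBF2, which encodes SREBP2 itself, HMGCS1, which was low at 2 h and high at 6 h, INSIG1 and NPC1, which were high at both times, and SCD and TMEM97, which were low at both times. Each line gives the 150 bases before the RefSeq start site (build GRCh38.p14), 5′ to 3′ on the strand of the gene. Capitals mark matches on either strand to a sterol regulatory element (TCACNCCAC), a CCAAT box (CCAAT), a GC box (GGGCGG) or an E-box (CACGTG), and a longer run of capitals in INSIG1 is a pair of overlapping GC boxes. The windows lie at chr22:41832955-41833104 (plus strand) for SREBF2, chr5:43313413-43313562 (minus strand) for HMGCS1, chr7:155297728-155297877 (plus strand) for INSIG1, chr18:23586507-23586656 (minus strand) for NPC1, chr10:100347083-100347232 (plus strand) for SCD and chr17:28319050-28319199 (plus strand) for TMEM97.
SREBF2: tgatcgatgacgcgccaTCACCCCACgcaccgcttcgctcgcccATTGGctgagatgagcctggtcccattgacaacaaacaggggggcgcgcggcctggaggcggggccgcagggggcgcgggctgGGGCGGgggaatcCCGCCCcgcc
HMGCS1: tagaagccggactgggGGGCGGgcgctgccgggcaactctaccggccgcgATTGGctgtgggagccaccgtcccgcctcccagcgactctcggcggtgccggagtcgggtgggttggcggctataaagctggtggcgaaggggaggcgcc
INSIG1: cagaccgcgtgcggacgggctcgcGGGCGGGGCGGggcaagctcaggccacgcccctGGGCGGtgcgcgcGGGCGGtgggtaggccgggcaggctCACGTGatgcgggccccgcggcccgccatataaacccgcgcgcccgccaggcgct
NPC1: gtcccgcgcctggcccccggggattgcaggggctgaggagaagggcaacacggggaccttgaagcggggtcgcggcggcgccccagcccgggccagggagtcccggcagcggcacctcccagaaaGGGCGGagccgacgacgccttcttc
SCD: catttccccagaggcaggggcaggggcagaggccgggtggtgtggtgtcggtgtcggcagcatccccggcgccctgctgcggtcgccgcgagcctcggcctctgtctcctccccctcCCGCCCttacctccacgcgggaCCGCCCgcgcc
TMEM97: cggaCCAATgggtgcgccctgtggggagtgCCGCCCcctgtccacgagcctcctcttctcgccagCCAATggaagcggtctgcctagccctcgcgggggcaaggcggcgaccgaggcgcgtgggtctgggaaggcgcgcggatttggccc

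RefSeq promoter windows, from 250 bases before to 50 bases after a start site, were held for 28 of the 32 members, and some genes had several, which gave 38 windows. SQLE, FDFT1, FASN and ACAT2 had none. The sterol regulatory element in these letters was found in 1 of the 38 member windows (2.63%), against 1.13% of all 35116 windows. It belonged to SREBF2, 1 of the 28 genes, and lay 133 bases before the start. A CCAAT box was found in 26 of the 38 member windows (68.4%), against 34.6% of all windows. Counted by gene, it was in 22 of the 28 members (78.6%), against 39.7% of all genes with a window. A GC box was found in 34 of the 38 member windows (89.5%), against 45% of all windows. The E-box letters were in 5 of 38 member windows (13.2%), against 7.26% of all windows, and belonged to INSIG1, LSS, SC5D and SCAP. By their direction at 6 h over DMSO, a CCAAT box was found in 7 of 8 genes called higher, 5 of 6 called lower and 10 of 14 not called. The CCAAT box letters were therefore present in most genes of each class. In the 150 bases shown, HMGCS1, SREBF2 and TMEM97 hold it, while those of INSIG1 and SCD lie further upstream. These counts describe letters only, and windows of 1 gene can overlap. The shares over all windows cover 27305 genes and were not limited to the tested genes.

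Counts assigned to genes totalled between 18013790 and 24002291 per library. The 8 plasma cell markers summed to 1856 to 1901 CPM (counts scaled to library size with TMM factors) at 6 h, 2002 to 2038 CPM at 2 h and 2144 to 2175 CPM in DMSO. These markers did not move together. IRF4 had 574.3 and 585.2 CPM at 6 h against 686.4 and 717.2 CPM in DMSO, while PRDM1 had 361.9 and 377.9 CPM against 268.4 and 284.2 CPM. The 4 B cell markers summed to at most 4.39 CPM, and the T cell, myeloid, erythroid and fibroblast markers to less, and CD22, CD3D, CD3G and LUM had no count in any library. The 4 epithelial markers, most of it EPCAM, summed to 118.9 to 126.2 CPM at 6 h, 125.7 to 129.6 CPM at 2 h and 102.2 CPM in each DMSO library. The part of these shifts in the results below was not tested.

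The members went in both directions at 6 h over DMSO. INSIG1, HMGCS1, IDI1, MSMO1, SC5D, STARD4, NPC1 and ACSS2 were higher, and FASN, ACACA, SCD, ELOVL6, SQLE, EBP, DHCR7 and TMEM97 were lower. A gene was called when its Benjamini-Hochberg adjusted p over all tested genes was under 0.05 in edgeR's quasi-likelihood test. At 6 h over DMSO, 8 of 32 members were called higher and 8 called lower (25% each way), and over all tested genes 18% were called higher and 18.6% lower, or 36.6% either way. At 2 h over DMSO, 2 of 32 members were called higher (6.25%) and 8 lower (25%), where 8.68% of all tested genes were called higher and 8.32% lower, or 17% either way. At 6 h over 2 h, 8 members were called higher and 8 lower, where 11.1% of all tested genes were called higher and 13.1% lower, or 24.3% either way. The direction of the last comparison over all genes depended on scaling, with 1731 higher and 2041 lower by TMM factors but 2409 higher and 1523 lower by library size alone, where 9 members were higher and 7 lower. The 3 comparisons share libraries and are not independent of one another. The median log2 change of the members was -0.11 at 6 h over DMSO, -0.11 at 2 h over DMSO and -0.03 at 6 h over 2 h, and the medians over all tested genes were -0.00498, -0.00488 and 0.0138 in the same order. Members called lower at 2 h rested on few libraries, and their number was 2 without 2 h replicate 1 and also 2 without 2 h replicate 2. In bulk RNA, a change in the cells present and a change in RNA per cell cannot be told apart.

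**Figure D1:**
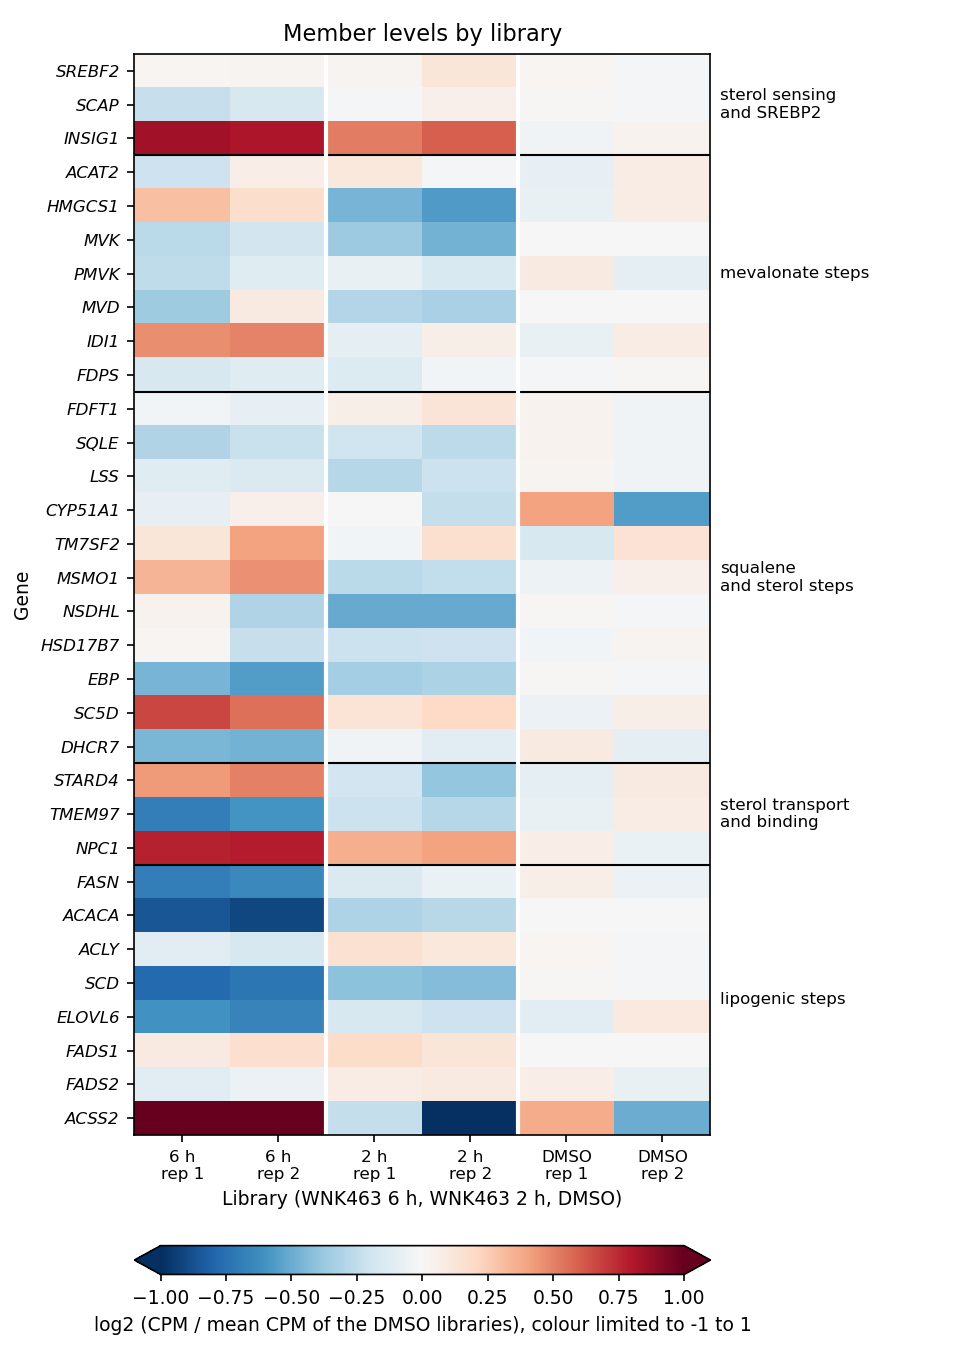
Level of each of the 32 members in each library as log2 of its CPM over the mean CPM of the 2 DMSO libraries. Rows are grouped by role, columns run from 6 h through 2 h to DMSO, and the colour is limited at 1 in either direction. INSIG1 and NPC1 are red in all 4 treated libraries, and ACACA, SCD and TMEM97 are blue in all 4.

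An early fall with a late recovery, as the genes had been grouped to examine, was seen in a few members and not in the set as a whole. HMGCS1 was the 1 member called lower at 2 h over DMSO and called higher at 6 h over DMSO. MSMO1 and STARD4 had their lowest levels at 2 h, but their 2 h changes were not called. Of the other members called lower at 2 h, ACACA, SCD and TMEM97 were lower still at 6 h, SQLE was at about the same level, and MVK, LSS and NSDHL were not called in either comparison that involves 6 h.

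**Figure D2:**
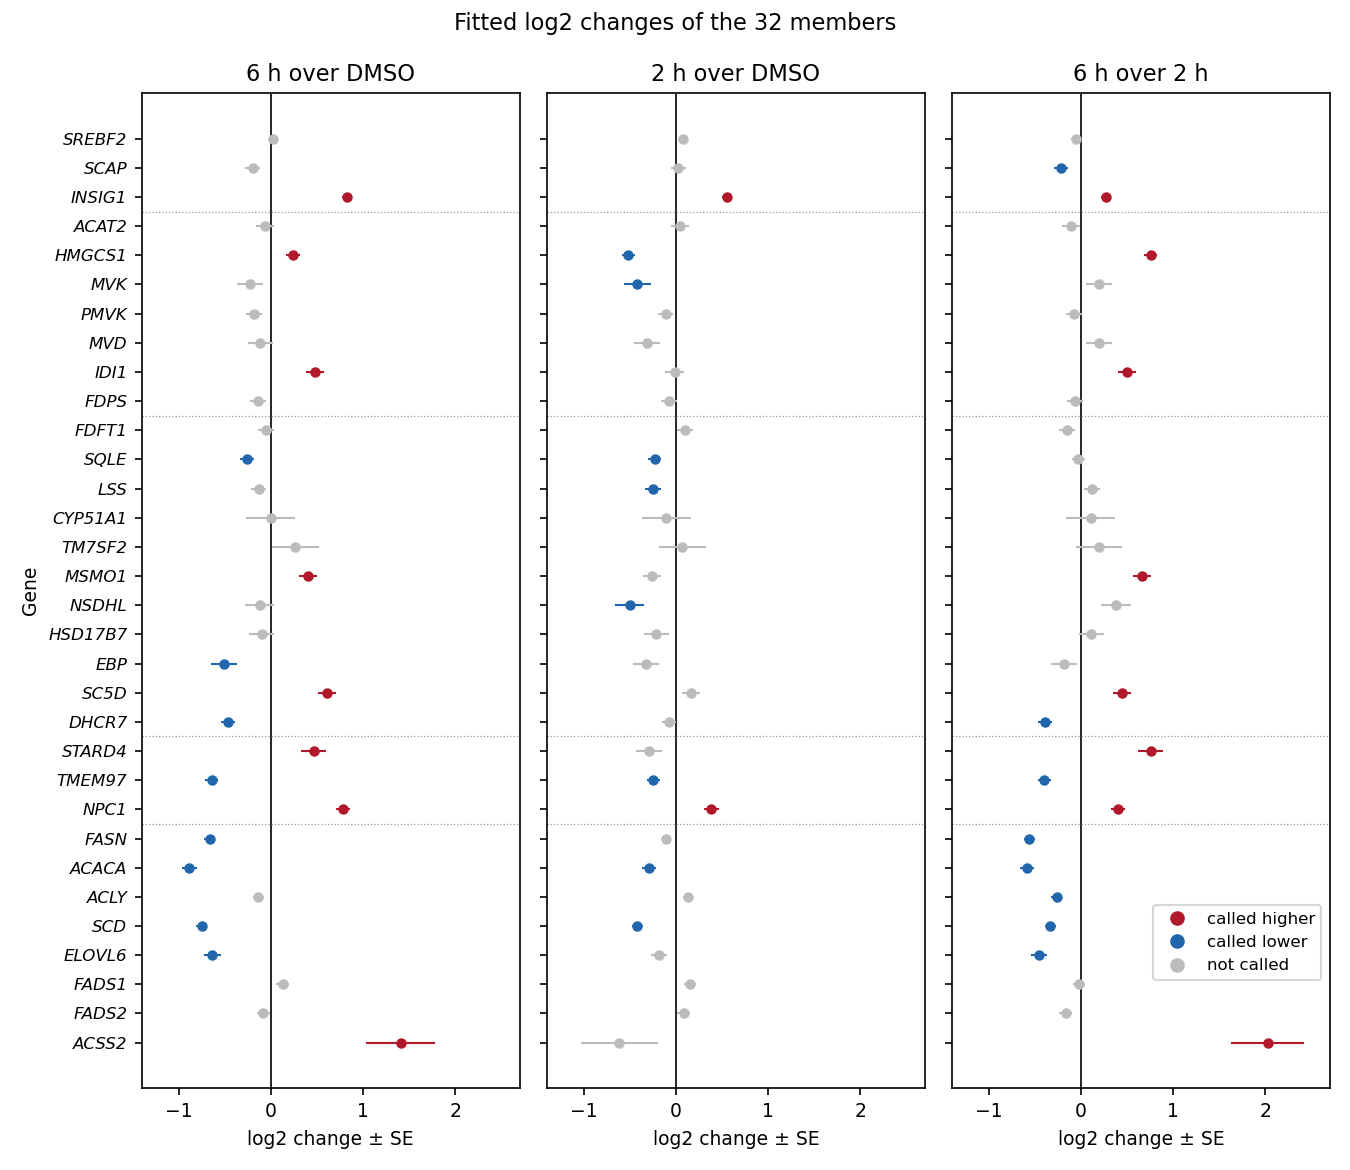
Fitted log2 change with its standard error for each member, at 6 h over DMSO (left), 2 h over DMSO (middle) and 6 h over 2 h (right). Red points were called higher, blue points lower and grey points not called, with 8 red and 8 blue points on the left, 2 red and 8 blue in the middle, and 8 red and 8 blue on the right.

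Of the sterol sensing genes, INSIG1 was higher at both times while SREBF2 was not called in any comparison. INSIG1 (chr7:155297776-155310235, plus strand), the SREBP target whose product holds SCAP in the endoplasmic reticulum, had 1083 and 1064 CPM at 6 h, 866.3 and 916.9 CPM at 2 h, and 590.1 and 621.9 CPM in DMSO. The 3 groups did not overlap. Its log2 change was 0.83 ± 0.05 (SE) at 6 h over DMSO (adjusted p = 2.13e-17), a fold of 1.77, and 0.56 ± 0.05 at 2 h over DMSO (adjusted p = 1.84e-11), a fold of 1.47. It was also higher at 6 h than at 2 h, by 0.27 ± 0.05 (adjusted p = 8.54e-05). SREBF2, which encodes SREBP2, had 480.9 and 482.1 CPM at 6 h, 483.2 and 516.2 CPM at 2 h, and 480.7 and 466.2 CPM in DMSO. Its log2 changes were 0.02 ± 0.06 at 6 h and 0.08 ± 0.06 at 2 h, both over DMSO (adjusted p = 0.781 and 0.386). SCAP, the escort protein, had 84.3 and 88.2 CPM at 6 h, 98.2 and 102.5 CPM at 2 h, and 99.6 and 98.0 CPM in DMSO. The 6 h libraries were the lowest pair. SCAP was called lower at 6 h over 2 h (log2 change -0.22 ± 0.08, adjusted p = 0.0381), and the change of -0.20 ± 0.08 at 6 h over DMSO lay just beyond the threshold (adjusted p = 0.0504). The SCAP call between 6 h and 2 h was lost without any 1 of the 4 WNK463 libraries, with adjusted p = 0.304 and 0.128 without 6 h replicate 1 and 2, and 0.112 and 0.281 without 2 h replicate 1 and 2. By library size alone it was also lost (adjusted p = 0.159), and without DMSO replicate 2 the change at 6 h over DMSO was called (adjusted p = 0.041).

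Among the 7 mevalonate genes, HMGCS1 and IDI1 were called higher at 6 h over DMSO (28.6%, against 18% of all tested genes). The other 5 were not called in that comparison, where 18.6% of all tested genes were called lower. HMGCS1 (chr5:43287470-43313512, minus strand), the cytosolic synthase that makes HMG-CoA, had 224.3 and 206.2 CPM at 6 h, 131.9 and 123.0 CPM at 2 h, and 173.0 and 191.3 CPM in DMSO. The 3 groups did not overlap, with 2 h lowest and 6 h highest. The log2 change of HMGCS1 was 0.24 ± 0.07 at 6 h over DMSO (adjusted p = 0.00605), a fold of 1.18, and -0.52 ± 0.07 at 2 h over DMSO (adjusted p = 3.72e-07), a fold of 0.699. Between 6 h and 2 h the log2 change was 0.76 ± 0.07 (adjusted p = 2.33e-11), a fold of 1.69. The call at 6 h over DMSO was lost without 6 h replicate 1, where HMGCS1 changed by 0.18 (adjusted p = 0.188), while the other 2 calls of this gene were kept under all 15 alternatives. Of the exonic length of HMGCS1, 37.7% is shared with a gene on the opposite strand, and the counts ignored strand. IDI1 (chr10:1039152-1049170, minus strand), the isomerase of the isoprenoid diphosphates, had 64.7 and 66.4 CPM at 6 h, 44.0 and 48.8 CPM at 2 h, and 44.6 and 49.3 CPM in DMSO. The 2 h and DMSO libraries of IDI1 overlapped, and both 6 h libraries lay above them. IDI1 was higher at 6 h by 0.48 ± 0.10 over DMSO (adjusted p = 0.000107) and by 0.50 ± 0.10 over 2 h (adjusted p = 0.00012), with a change of -0.02 ± 0.10 at 2 h over DMSO. It shares 14.8% of its exonic length with IDI2-AS1 on the opposite strand.

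MVK, which phosphorylates mevalonate, had 17.4 and 18.4 CPM at 6 h, 16.2 and 15.0 CPM at 2 h, and 20.9 CPM in each DMSO library. MVK was called lower at 2 h over DMSO (log2 change -0.42 ± 0.14, adjusted p = 0.0353). This call was lost without any 1 of 5 libraries, with adjusted p = 0.0504 without 6 h replicate 2, 0.0835 and 0.253 without 2 h replicate 1 and 2, and 0.0753 and 0.0865 without DMSO replicate 1 and 2. PMVK, the next kinase, had 77.4 and 84.9 CPM at 6 h, 87.7 and 83.1 CPM at 2 h, and 98.2 and 86.7 CPM in DMSO. It was not called at 6 h over DMSO (log2 change -0.19 ± 0.09, adjusted p = 0.0842), but without DMSO replicate 2 the change of PMVK was -0.28 (adjusted p = 0.00727). MVD, the decarboxylase that follows, had 18.8 and 25.6 CPM at 6 h, 19.6 and 19.1 CPM at 2 h, and 23.9 and 24.1 CPM in DMSO, so that the 6 h libraries spanned both other groups. FDPS, which makes farnesyl diphosphate, lay between 65.6 and 73.9 CPM in the 6 libraries. ACAT2, the thiolase that opens the pathway, lay between 50.9 and 63.4 CPM. Neither FDPS nor ACAT2 was called in any comparison, and they share 18.6% and 22.2% of their exonic length with other genes.

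Of the 11 squalene and sterol genes, 2 were called higher (18.2%), 3 called lower (27.3%) and 6 not called at 6 h over DMSO, against 18% and 18.6% of all tested genes. The higher ones were MSMO1 and SC5D. MSMO1 (chr4:165327667-165343164, plus strand), an oxidase in the removal of methyl groups from the sterol ring, had 64.0 and 69.2 CPM at 6 h, 41.9 and 42.5 CPM at 2 h, and 48.6 and 52.4 CPM in DMSO. Its groups did not overlap, and they stood in the same order as those of HMGCS1. The log2 change of MSMO1 was 0.40 ± 0.10 at 6 h over DMSO (adjusted p = 0.000915) and 0.66 ± 0.10 at 6 h over 2 h (adjusted p = 9.25e-07). At 2 h over DMSO the change of -0.26 ± 0.10 was not called (adjusted p = 0.0643), but it was without DMSO replicate 1 (adjusted p = 0.0335). SC5D (chr11:121292681-121313410, plus strand), a desaturase late in the pathway, had 74.9 and 68.8 CPM at 6 h, 51.8 and 54.0 CPM at 2 h, and 45.2 and 49.0 CPM in DMSO. For SC5D the 2 h libraries lay above DMSO rather than below it, though that change was not called (0.17 ± 0.10, adjusted p = 0.264). SC5D was higher at 6 h by 0.61 ± 0.10 over DMSO (adjusted p = 1.28e-06) and by 0.44 ± 0.09 over 2 h (adjusted p = 0.000344).

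The sterol genes called lower at 6 h were DHCR7, EBP and SQLE. DHCR7 (chr11:71428193-71452868, minus strand), the reductase of the last step to cholesterol, had 90.3 and 89.4 CPM at 6 h, 121.0 and 114.9 CPM at 2 h, and 132.4 and 115.9 CPM in DMSO. The 2 h and DMSO libraries overlapped and both 6 h libraries were below them. The log2 change of DHCR7 was -0.47 ± 0.08 at 6 h over DMSO (adjusted p = 5.43e-06) and -0.39 ± 0.08 at 6 h over 2 h (adjusted p = 0.000155). EBP, the sterol isomerase, had 16.4 and 15.4 CPM at 6 h, 17.99 and 18.23 CPM at 2 h, and 22.9 and 22.5 CPM in DMSO. Its change at 6 h over DMSO was -0.51 ± 0.14 (adjusted p = 0.00322) and was lost without 6 h replicate 2 (EBP adjusted p = 0.0524). EBP shares 36.4% of its exonic length with another gene on the same strand, so its counts are uncertain. SQLE, the oxidase that controls the flow from squalene, had 119.1 and 126.3 CPM at 6 h, 127.9 and 122.7 CPM at 2 h, and 150.6 and 143.5 CPM in DMSO. All 4 treated libraries of SQLE lay below both DMSO libraries, and the 2 treated groups overlapped. SQLE changed by -0.26 ± 0.07 at 6 h over DMSO (adjusted p = 0.00394) and by -0.23 ± 0.07 at 2 h over DMSO (adjusted p = 0.0217). Without 6 h replicate 1 the first of these was not called (SQLE adjusted p = 0.122), and the second was not called without 2 h replicate 1 or 2 (0.0949 and 0.258) or without 6 h replicate 1 or 2 (0.0519 and 0.052).

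LSS and NSDHL were called lower at 2 h and not at 6 h. LSS, the cyclase that makes lanosterol, had 85.8 and 84.3 CPM at 6 h, 76.6 and 80.1 CPM at 2 h, and 95.2 and 91.2 CPM in DMSO. Its change at 2 h over DMSO was -0.25 ± 0.08 (adjusted p = 0.0294), and the call was lost without 6 h replicate 1 or 2 (LSS adjusted p = 0.0631 and 0.0628), 2 h replicate 1 or 2 (0.248 and 0.12) or DMSO replicate 1 (0.067). NSDHL, a dehydrogenase of the demethylation steps, had 17.1 and 13.5 CPM at 6 h, 11.8 and 11.7 CPM at 2 h, and 16.8 and 16.5 CPM in DMSO. The 2 h libraries of NSDHL were the lowest and the 6 h libraries spanned the DMSO level. It changed by -0.50 ± 0.16 at 2 h over DMSO (adjusted p = 0.0228), a call lost without 2 h replicate 1 or 2 (NSDHL adjusted p = 0.09 and 0.113) or DMSO replicate 1 (0.0606). The change of NSDHL at 6 h over 2 h, 0.38 ± 0.16, was not called (adjusted p = 0.0786). The remaining 4 sterol genes were not called in any comparison. FDFT1, which makes squalene, lay between 74.5 and 86.4 CPM, and HSD17B7, a ketoreductase with a counted copy (HSD17B7P2, 27 to 56 counts per library), between 19.9 and 23.8 CPM. TM7SF2, a sterol reductase, lay between 4.27 and 6.31 CPM, and CYP51A1, the lanosterol demethylase, between 3.92 and 7.64 CPM. The level of CYP51A1 is uncertain, since 80.6% of its exonic length is shared with another gene model on the same strand.

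All 3 genes of sterol transport and binding were called at 6 h over DMSO, NPC1 and STARD4 higher and TMEM97 lower. Over all tested genes 18% were called higher and 18.6% lower, and 3 genes are too few to set against those shares. NPC1 (chr18:23506184-23586506, minus strand), which exports cholesterol from lysosomes, had 144.6 and 146.2 CPM at 6 h, 108.7 and 112.0 CPM at 2 h, and 88.5 and 80.7 CPM in DMSO. The groups did not overlap. The log2 change of NPC1 was 0.78 ± 0.08 at 6 h over DMSO (adjusted p = 2.01e-11), a fold of 1.72, 0.38 ± 0.08 at 2 h over DMSO (adjusted p = 0.000257) and 0.40 ± 0.08 at 6 h over 2 h (adjusted p = 7.23e-05). All 3 calls were kept under all 15 alternatives. TMEM97 (chr17:28319200-28328685, plus strand), a membrane protein that binds NPC1, had 118.6 and 126.9 CPM at 6 h, 165.7 and 157.9 CPM at 2 h, and 182.2 and 201.6 CPM in DMSO. Its groups stood apart in the reverse order to those of NPC1. TMEM97 changed by -0.64 ± 0.07 at 6 h over DMSO (adjusted p = 5.64e-10), -0.25 ± 0.07 at 2 h over DMSO (adjusted p = 0.0115) and -0.40 ± 0.07 at 6 h over 2 h (adjusted p = 3.21e-05). The 2 h call was lost without 2 h replicate 1 or 2 (TMEM97 adjusted p = 0.0515 and 0.201) and without DMSO replicate 2 (-0.16, adjusted p = 0.0814). STARD4, a cytosolic sterol carrier, had 26.0 and 27.4 CPM at 6 h, 16.9 and 14.8 CPM at 2 h, and 18.1 and 20.6 CPM in DMSO. Its groups did not overlap and followed the order seen for HMGCS1 and MSMO1. STARD4 was higher at 6 h by 0.46 ± 0.14 over DMSO (adjusted p = 0.00609) and by 0.75 ± 0.14 over 2 h (adjusted p = 3.75e-05), and its change of -0.29 ± 0.14 at 2 h over DMSO was not called (adjusted p = 0.163). The call at 6 h over DMSO was lost without 6 h replicate 2 (STARD4 adjusted p = 0.0693) and without DMSO replicate 1 (0.0618).

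**Figure D3:**
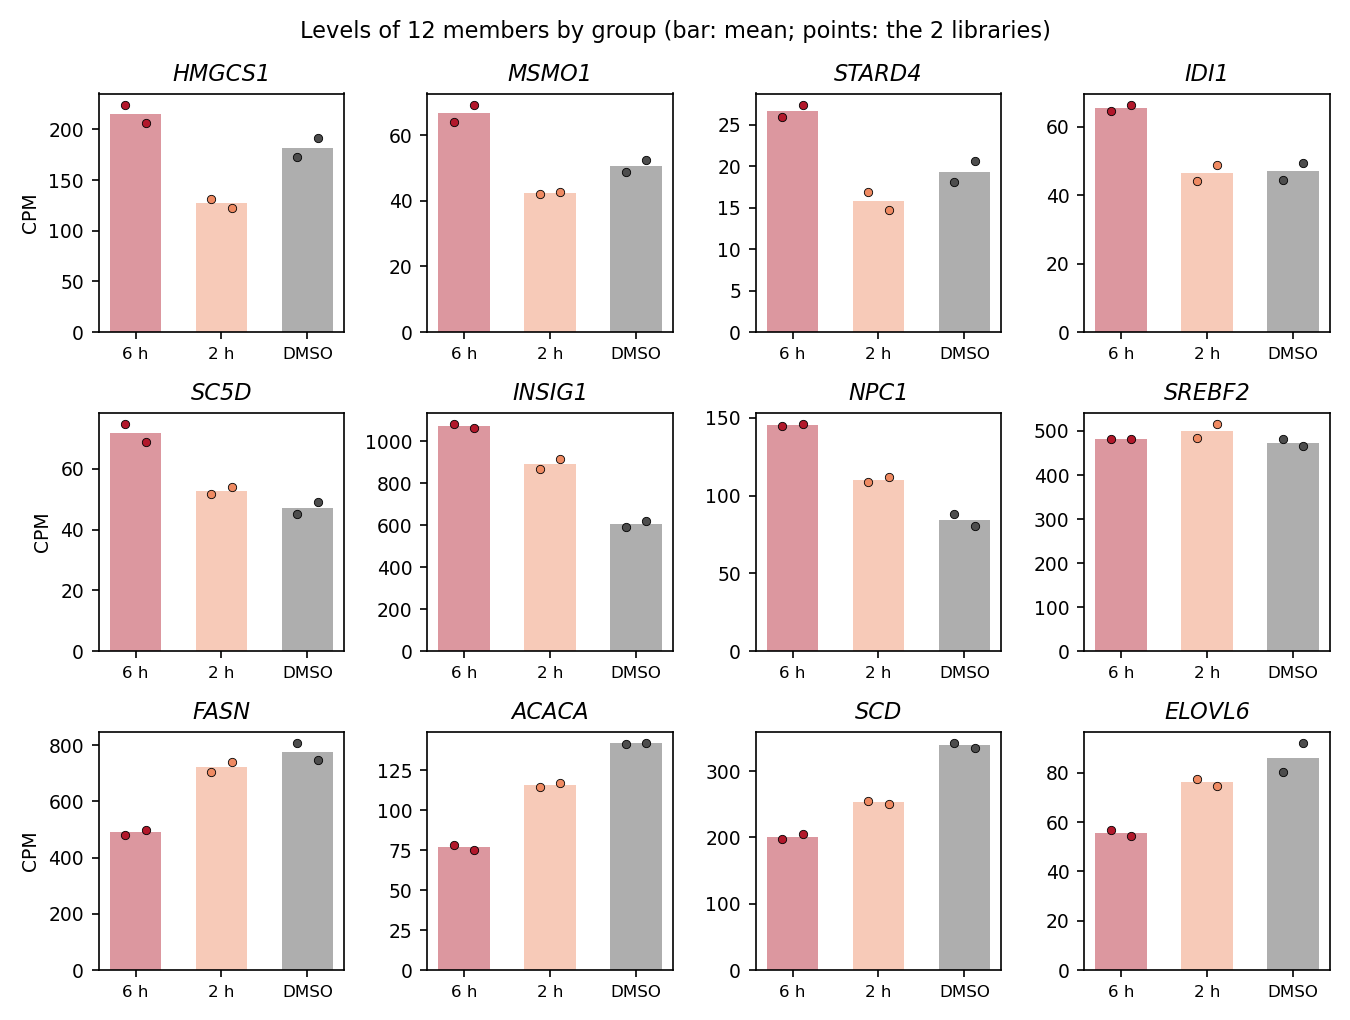
CPM of 12 members by group, with the bar at the group mean, a point for each of the 2 libraries and a scale for each gene that starts at 0. HMGCS1, MSMO1 and STARD4 are lowest at 2 h and highest at 6 h, IDI1 and SC5D are highest at 6 h, INSIG1 and NPC1 stand in the order 6 h, 2 h, DMSO, and FASN, ACACA, SCD and ELOVL6 are lowest at 6 h.

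Of the 8 lipogenic genes, 4 were called lower (50%, against 18.6% of all tested genes) and 1 higher (12.5%, against 18%) at 6 h over DMSO. FASN, ACACA, SCD and ELOVL6 were called lower at 6 h over DMSO and at 6 h over 2 h, and each of these 8 calls was kept under all 15 alternatives. ACACA (chr17:37084992-37406836, minus strand), the carboxylase that makes malonyl-CoA, had 78.3 and 75.3 CPM at 6 h, 114.2 and 117.0 CPM at 2 h, and 141.4 and 142.0 CPM in DMSO. Its log2 change was -0.88 ± 0.08 at 6 h over DMSO (adjusted p = 5.02e-13), a fold of 0.542, -0.29 ± 0.08 at 2 h over DMSO (adjusted p = 0.00406) and -0.59 ± 0.08 at 6 h over 2 h (adjusted p = 6.36e-08). The ACACA call at 2 h was lost without 2 h replicate 1 or 2 (adjusted p = 0.0836 and 0.0502). FASN (chr17:82078338-82098294, minus strand), the synthase that builds palmitate, had 482.0 and 496.8 CPM at 6 h, 703.0 and 740.6 CPM at 2 h, and 807.9 and 745.7 CPM in DMSO. The 2 h libraries of FASN lay just under the lower DMSO library, and both 6 h libraries far under them. FASN changed by -0.67 ± 0.06 at 6 h over DMSO (adjusted p = 1.04e-13), a fold of 0.63, and by -0.56 ± 0.06 at 6 h over 2 h (adjusted p = 5.98e-11). Its change of -0.11 ± 0.05 at 2 h over DMSO was not called (adjusted p = 0.198), but without DMSO replicate 2 the change of FASN was -0.15 (adjusted p = 0.00409).

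SCD (chr10:100347233-100364826, plus strand), the desaturase that makes oleate, had 197.4 and 204.9 CPM at 6 h, 255.6 and 251.2 CPM at 2 h, and 342.6 and 335.3 CPM in DMSO. The groups did not overlap. SCD changed by -0.75 ± 0.06 at 6 h over DMSO (adjusted p = 9.99e-14), -0.42 ± 0.06 at 2 h over DMSO (adjusted p = 1.19e-06) and -0.33 ± 0.06 at 6 h over 2 h (adjusted p = 4.78e-05), and all 3 calls were kept under all alternatives. ELOVL6 (chr4:110045846-110199199, minus strand), which elongates palmitate, had 56.7 and 54.2 CPM at 6 h, 77.2 and 74.8 CPM at 2 h, and 80.2 and 92.1 CPM in DMSO. It changed by -0.64 ± 0.09 at 6 h over DMSO (adjusted p = 1.44e-07) and -0.46 ± 0.09 at 6 h over 2 h (adjusted p = 0.000118). At 2 h over DMSO the change of -0.18 ± 0.09 was not called (adjusted p = 0.164), but it was without DMSO replicate 1 (ELOVL6 adjusted p = 0.0222). SCD was thus called lower in all 3 comparisons, and FASN and ELOVL6 in the 2 that include 6 h.

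ACLY, which makes cytosolic acetyl-CoA from citrate, had 331.0 and 320.3 CPM at 6 h, 397.5 and 386.0 CPM at 2 h, and 362.5 and 353.8 CPM in DMSO. The groups did not overlap, with 2 h highest and 6 h lowest. ACLY was called lower at 6 h over 2 h (log2 change -0.27 ± 0.06, adjusted p = 0.000477) and was not called at 6 h over DMSO (-0.14 ± 0.06, adjusted p = 0.0629) or at 2 h over DMSO (0.13 ± 0.06, adjusted p = 0.13). Without DMSO replicate 2 the 6 h change of ACLY was called (adjusted p = 0.00983), and without DMSO replicate 1 the 2 h change was (adjusted p = 0.0274). The desaturases of polyunsaturated fatty acids were not called in any comparison: FADS1 lay between 153.8 and 175.2 CPM and FADS2 between 147.6 and 169.2 CPM in the 6 libraries. Without DMSO replicate 1 or 2, however, FADS2 was called lower at 6 h over 2 h (adjusted p = 0.0104 and 0.00722, log2 change -0.17 and -0.18). ACSS2, at a low level, went against FASN, ACACA, SCD and ELOVL6 at 6 h over DMSO. ACSS2 (chr20:34872146-34927962, plus strand), which makes acetyl-CoA from acetate, had 106 and 93 counts at 6 h, 30 and 21 counts at 2 h, and 45 and 29 counts in DMSO. Both 6 h libraries were above all others, and 2 h and DMSO overlapped. ACSS2 was higher at 6 h by 1.41 ± 0.38 over DMSO (adjusted p = 0.00244), a fold of 2.66, and by 2.02 ± 0.39 over 2 h (adjusted p = 8.51e-05). Without DMSO replicate 2 the first of these was 1.03 and not called (ACSS2 adjusted p = 0.0514).

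Summed by role, the lipogenic genes came to 1462 and 1482 CPM at 6 h, 1892 and 1908 CPM at 2 h, and 2059 and 1976 CPM in DMSO. The sum was lowest at 6 h, and FASN was its largest part. The sterol sensing genes summed to 1649 and 1634 CPM at 6 h, 1448 and 1536 CPM at 2 h, and 1170 and 1186 CPM in DMSO, and INSIG1 made nearly all of that difference. The mevalonate genes summed to 518.9 and 530.3 CPM at 6 h, 429.7 and 419.4 CPM at 2 h, and 489.2 and 508.1 CPM in DMSO, which was the order of HMGCS1. The squalene and sterol genes summed to 579.1 and 573.7 CPM at 6 h, 561.7 and 561.1 CPM at 2 h, and 627.5 and 601.0 CPM in DMSO, with both treated groups below DMSO. Sterol transport and binding, where NPC1 and TMEM97 moved in opposite directions, summed to 289.2 and 300.5 CPM at 6 h, 291.4 and 284.7 CPM at 2 h, and 288.7 and 302.9 CPM in DMSO. The groups overlapped there.

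Scaled to exonic length as TPM (length-scaled counts brought to a common total), the members ranged widely in level. INSIG1 averaged 855.5 TPM over the 6 libraries and was the highest member, with 1099 TPM at 6 h, 863.9 TPM at 2 h and 603.2 TPM in DMSO. PMVK (313.1 TPM), FASN (257.7 TPM), ACLY (249.9 TPM) and SREBF2 (233.3 TPM) followed. The lowest were ACSS2 (1.94 TPM), TM7SF2 (5.50 TPM) and CYP51A1 (5.80 TPM). The rank of CYP51A1 is uncertain, since 80.6% of its exonic length is shared with another gene model on the same strand. Within the sterol branch, SQLE averaged 111.2 TPM and DHCR7 97.4 TPM, against 16.6 TPM for HSD17B7. The members called at 6 h over DMSO were thus found across the range, INSIG1 at the top and ACSS2 at the bottom of it.

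**Figure D4:**
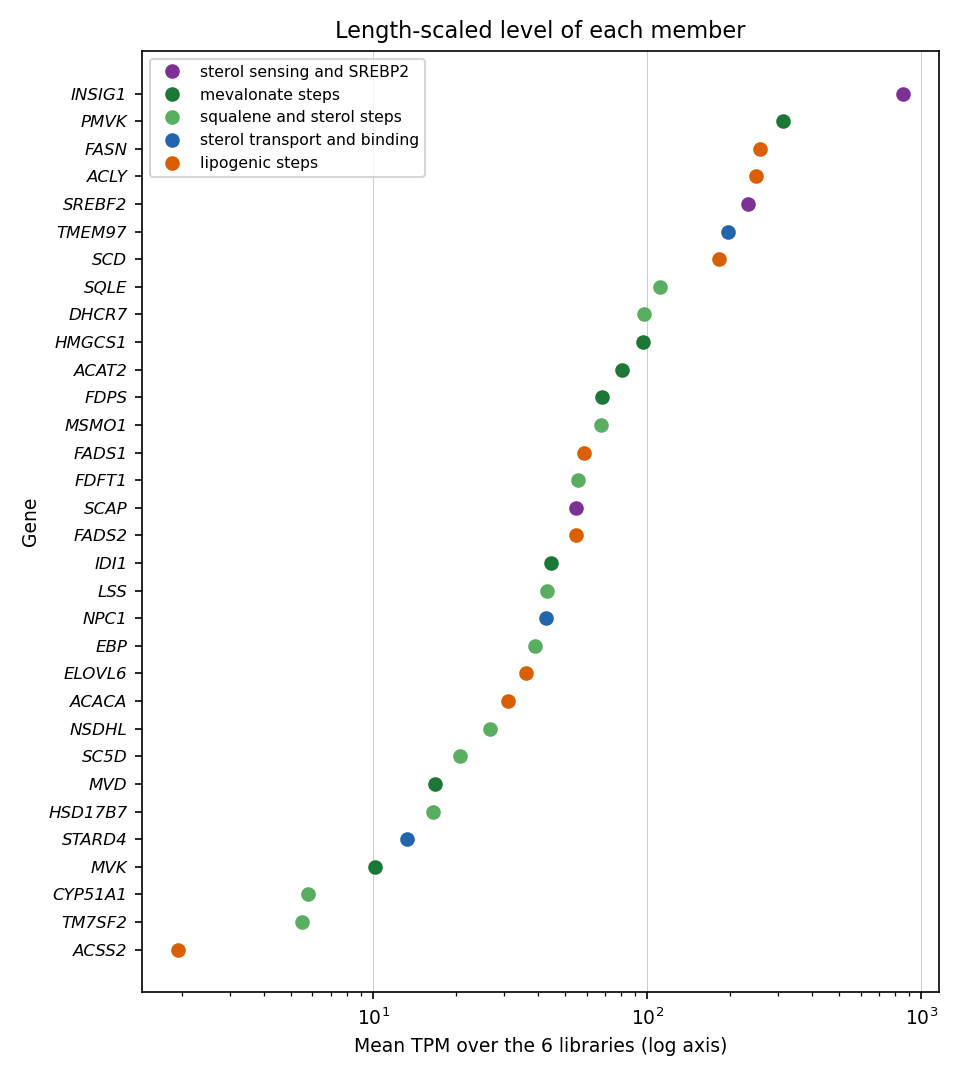
Mean TPM of each member over the 6 libraries on a log axis, coloured by role and ordered by level. INSIG1 is highest at 855.5 TPM and ACSS2 lowest at 1.94 TPM.

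Other genes that handle SREBP and sterol-regulated degradation were tested as a list of 10. At 6 h over DMSO, 4 were called higher (40%, against 18% of all tested genes) and 1 lower (10%, against 18.6%). At 2 h over DMSO 1 was higher (10%, against 8.68%) and 0 lower (against 8.32%). At 6 h over 2 h there was 1 in each direction (10% each way, against 11.1% higher and 13.1% lower). The count of 0 was by edgeR, with 1 lower at an unadjusted p under 0.05, 0 by DESeq2 and 1 by limma voom. ERLIN2, part of the machinery that degrades sterol-regulated proteins, was higher at 6 h by 0.55 ± 0.08 over DMSO (adjusted p = 1.6e-07). SPRING1, which supports processing of SREBP, had 114.1 and 111.6 CPM at 6 h, 98.2 and 97.3 CPM at 2 h, and 81.3 and 74.7 CPM in DMSO, and was called higher at 6 h (0.53) and at 2 h (0.33) over DMSO. RNF139, an E3 ligase of the endoplasmic reticulum, was higher at 6 h over DMSO by 0.32, a call lost without 6 h replicate 2 (adjusted p = 0.0526). INSIG2, the relative of INSIG1, had 19.2 and 18.4 CPM at 6 h, 16.0 and 15.3 CPM at 2 h, and 15.4 and 17.5 CPM in DMSO. It was not called in any comparison, unlike INSIG1 (log2 change of INSIG2 0.19 ± 0.15 at 6 h over DMSO), and the difference between the 2 genes was not tested.

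Of the 13 genes of the isoprenoid branch, 2 were called higher (15.4%, against 18% of all tested genes) and 5 lower (38.5%, against 18.6%) at 6 h over DMSO. At 2 h over DMSO there was 1 in each direction (7.69% each way, against 8.68% higher and 8.32% lower). At 6 h over 2 h 1 was higher (7.69%, against 11.1%) and 4 lower (30.8%, against 13.1%). GGPS1, which makes geranylgeranyl diphosphate, was higher at 6 h (1.13 ± 0.20, adjusted p = 8.29e-06) and at 2 h (0.72 ± 0.20, adjusted p = 0.00878) over DMSO. The subunits of the Rab prenyltransferase moved apart at 6 h over DMSO, RABGGTA by 0.54 and RABGGTB by -0.83 (adjusted p = 0.000647 and 1.05e-11). PDSS1, which makes the side chain of coenzyme Q, changed by -0.87 and FNTA, a farnesyltransferase subunit, by -0.33 at 6 h over DMSO, and NUS1, a subunit of the dolichol synthase, by -0.30 at 6 h over 2 h. The GGPS1 call at 2 h was lost without 2 h replicate 2 (adjusted p = 0.12), the FNTA call without 6 h replicate 1 or DMSO replicate 2 (0.0542 and 0.176), and the NUS1 call without 6 h replicate 2 (0.0508). Of 7 other sterol enzymes and electron donors, 0 were called by edgeR in any comparison, 0 had an unadjusted p under 0.05, and 0 were called by DESeq2 or limma voom. Over all tested genes 36.6% were called either way at 6 h over DMSO, 17% at 2 h over DMSO and 24.3% at 6 h over 2 h. LBR, a sterol reductase of the nuclear envelope, was among the 7 (log2 change 0.00 ± 0.06 at 6 h over DMSO).

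Of 16 genes of elongation, desaturation and precursor supply, 2 were called higher (12.5%) and 3 lower (18.8%) at 6 h over DMSO, against 18% and 18.6% of all tested genes. At 2 h over DMSO 2 were higher (12.5%, against 8.68% of all tested genes) and 1 lower (6.25%, against 8.32%). At 6 h over 2 h 1 was higher (6.25%, against 11.1%) and 2 lower (12.5%, against 13.1%). ME1, which supplies NADPH, had 168.8 and 169.7 CPM at 6 h, 257.1 and 278.9 CPM at 2 h, and 223.2 and 249.8 CPM in DMSO, and was lower at 6 h over DMSO (-0.48 ± 0.07, adjusted p = 1.15e-07) and over 2 h (-0.66 ± 0.07, adjusted p = 1.45e-10). MCAT, of mitochondrial fatty acid synthesis, and MID1IP1, which activates the carboxylase encoded by ACACA, were lower at 6 h over DMSO (log2 changes -0.49 and -0.40). The MCAT call was lost without 6 h replicate 1 or DMSO replicate 1 (adjusted p = 0.131 and 0.141), and the MID1IP1 call without 6 h replicate 1 (0.172). HACD2, a dehydratase of elongation, was higher at 6 h (0.27) and 2 h (0.20) over DMSO, and FADS3, a relative of FADS1 and FADS2, was lower at 2 h over DMSO (-0.30) and higher at 6 h over 2 h (0.49). The HACD2 call at 6 h was lost without 6 h replicate 2 (adjusted p = 0.0747), and its 2 h call without 6 h replicate 1 or 2 (0.0942 and 0.0943), 2 h replicate 1 or 2 (0.175 and 0.279) or DMSO replicate 1 (0.13), and by library size alone (0.1). The FADS3 call at 2 h was lost by DESeq2 (0.0657), and without 2 h replicate 1 or 2 (0.0654 and 0.259) or DMSO replicate 1 (0.275). ELOVL7, an elongase, was nearly absent in DMSO, with 45 counts at 6 h, 25 at 2 h and 1 in DMSO over both libraries. Scaled to depth, that was a ratio of 46.3 at 6 h over DMSO (95% counting interval 7.89 to 1868) and 23.0 at 2 h over DMSO (3.77 to 944.7), and both changes were called, the 2 h one not without 2 h replicate 2 or DMSO replicate 2 (adjusted p = 0.0973 and 0.137). SLC25A1, the citrate carrier, was not called in any comparison (-0.04 ± 0.09 at 6 h over DMSO).

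Of 15 genes of fatty acid activation and glycerolipid synthesis, 14 were tested. At 6 h over DMSO 1 was called higher (7.14%, against 18% of all tested genes) and 6 lower (42.9%, against 18.6%). At 2 h over DMSO 1 was higher (7.14%, against 8.68%) and 3 lower (21.4%, against 8.32%). At 6 h over 2 h 3 were higher (21.4%, against 11.1%) and 4 lower (28.6%, against 13.1%). DGAT2, which makes triacylglycerol, had 46.7 and 46.3 CPM at 6 h, 85.9 and 80.4 CPM at 2 h, and 101.9 and 99.6 CPM in DMSO. It changed by -1.12 ± 0.09 at 6 h over DMSO (adjusted p = 2.25e-14) and -0.28 ± 0.08 at 2 h over DMSO (adjusted p = 0.0164), in the same order of groups as ACACA and SCD. The DGAT2 call at 2 h was lost without 2 h replicate 1 or 2 (adjusted p = 0.0568 and 0.257). GPAM, the mitochondrial acyltransferase that opens glycerolipid synthesis, had 27.2 and 25.4 CPM at 6 h, 17.2 and 20.5 CPM at 2 h, and 40.6 and 38.6 CPM in DMSO. GPAM changed by -1.07 ± 0.12 at 2 h over DMSO (adjusted p = 7.01e-09), -0.59 ± 0.12 at 6 h over DMSO (adjusted p = 0.00012) and 0.48 ± 0.13 at 6 h over 2 h (adjusted p = 0.00381), the last of these not called without 2 h replicate 1 or 6 h replicate 1 (0.123 and 0.0657). LPIN1, a phosphatidate phosphatase, was lower at 2 h over DMSO (-0.29) and higher at 6 h over 2 h (0.24). Its relative LPIN2 was higher at 6 h over DMSO (0.37) and over 2 h (0.51). AGPAT5 and AGPAT3, acyltransferases of phosphatidate synthesis, changed by -0.48 and -0.35 at 6 h over DMSO, and ACSL1, which activates fatty acids, by 0.26 at 2 h over DMSO. The LPIN1 call at 6 h over 2 h was lost without 6 h replicate 2 (adjusted p = 0.0619), and the LPIN2 and AGPAT3 calls at 6 h over DMSO without 6 h replicate 1 (0.071 and 0.0525). The ACSL1 call was lost by DESeq2 (0.0512) and by library size alone (0.0694), and without 6 h replicate 1 or 2 (0.0562 and 0.0576), 2 h replicate 1 or 2 (0.101 and 0.245) or DMSO replicate 1 (0.108).

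Of 15 genes of cholesterol esterification, trafficking and efflux, 14 were tested. At 6 h over DMSO 10 were called higher (71.4%, against 18% of all tested genes) and 1 lower (7.14%, against 18.6%). At 2 h over DMSO 6 were higher (42.9%, against 8.68%) and 1 lower (7.14%, against 8.32%). At 6 h over 2 h 5 were higher (35.7%, against 11.1%) and 1 lower (7.14%, against 13.1%). ABCA1, which exports cholesterol from the cell, had 57.96 and 61 CPM at 6 h, 34 and 35.39 CPM at 2 h, and 18.8 and 18.9 CPM in DMSO. The groups did not overlap, in the same order as those of INSIG1 and NPC1. ABCA1 changed by 1.66 ± 0.11 at 6 h over DMSO (adjusted p = 2.35e-16), a fold of 3.16, by 0.88 ± 0.11 at 2 h over DMSO (adjusted p = 9.11e-08) and by 0.78 ± 0.11 at 6 h over 2 h (adjusted p = 2.06e-07). OSBP, which exchanges sterol between the endoplasmic reticulum and the Golgi, was higher at 6 h (0.69 ± 0.07, adjusted p = 5.82e-11) and at 2 h (0.40 ± 0.07, adjusted p = 3.69e-05) over DMSO. MYLIP, an E3 ligase for lipoprotein receptors, was higher at 6 h over DMSO by 0.92 ± 0.15 (adjusted p = 3.07e-06), NCEH1, a cholesteryl ester hydrolase, at 2 h over DMSO by 0.62, and OSBPL2, a relative of OSBP, at 6 h over 2 h by 0.60. The called falls were SCARB1, a lipoprotein receptor, at -0.23 and -0.36 at 6 h over DMSO and over 2 h, and STARD3, an endosomal sterol carrier, at -0.36 at 2 h over DMSO. The OSBPL2 call was lost without 6 h replicate 1 (adjusted p = 0.0924), and the STARD3 call without 2 h replicate 1 or 2 (0.117 and 0.102).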

How the data were processed

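The deposited table held fragment counts per gene for 6 libraries, and an exonic length for each gene. The authors trimmed reads with Trimmomatic, aligned them to hg38 with STAR (neither version given) and counted fragments with featureCounts 2.0.0, per the submitters' processing notes and the file headers. Alignments of mapping quality 20 or more were counted, without regard to strand, over GENCODE 34, per the file headers. The 60728 genes included 30725 with no count, and 60415 identifiers matched a symbol. A record broken over 3 lines was rejoined. No other per-sample columns were used.

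Counts were fitted with edgeR 4.0.16 (R 4.3.3) by quasi-likelihood tests. The fit took the 6 libraries together, gave each group its own mean, and used TMM factors and filterByExpr, which left 15548 genes, and Benjamini-Hochberg adjustment over them at 0.05. The biological coefficient of variation was 7.72% over all genes. Each SE is the log2 change divided by the root of its F value. Within every group the libraries differed beyond counting error, with a chi-square statistic divided by its degrees of freedom of 3.57 at 6 h, 4.15 at 2 h and 8.41 in DMSO, so all were kept. A count of 3 corresponded to 0.125 to 0.167 CPM. Counting intervals cover counting error only. The procedure was tested on simulated data. Alternatives were other scalings (library size alone, DESeq2 size factors), filters, tests (DESeq2 1.42.0, limma 3.58.1 voom, robust dispersions, only the groups compared), a replicate block, a threshold of 0.01, and leaving out each library in turn. All members were named. From the other lists the rule named up to 3 called genes in each direction with the smallest adjusted p, and always INSIG2, LBR, SLC25A1 and ABCA1. The members, the lists and the promoters shown were chosen with earlier results of these data known. Some genes of these pathways are not reported here. Promoters came from RefSeq (GRCh38.p14). Figures were drawn with matplotlib 3.10.9 in Python 3.11.15.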

Additional observations from a re-analysis of the deposited data

Results flagged for a closer look

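For 16 members the change over DMSO differed between the 6 h and the 2 h libraries, by the test of 6 h over 2 h in the same fit. WNK463 and time in culture cannot be told apart in these libraries. The DMSO libraries drop out of that contrast, but they still entered the filter, the scaling and the estimate of the spread. The 6 h change minus the 2 h change, on the log2 scale, was above 0 for 8 of the 16 members: 2.02 for ACSS2, 0.76 for HMGCS1, 0.75 for STARD4, 0.66 for MSMO1, 0.50 for IDI1, 0.44 for SC5D, 0.40 for NPC1 and 0.27 for INSIG1. It was below 0 for the other 8: -0.59 for ACACA, -0.56 for FASN, -0.46 for ELOVL6, -0.40 for TMEM97, -0.39 for DHCR7, -0.33 for SCD, -0.27 for ACLY and -0.22 for SCAP. Both 6 h libraries lay on the same side of both 2 h libraries for each member. The 16 were picked by the test on these same libraries, so this adds no support. The difference for SCAP was the 1 of the 16 not kept under every alternative.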

How the results depend on the processing

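Of 42 calls of members over the 3 comparisons, 30 were kept under all 15 alternatives: 11 of 16 at 6 h over DMSO, 4 of 10 at 2 h over DMSO and 15 of 16 at 6 h over 2 h. No call changed direction. Members called lower at 2 h over DMSO numbered 8, but 5 with only the 2 groups compared, 3 at an adjusted p under 0.01 and 2 to 7 with 1 library left out. Of these 8, MVK lost its call with no filter (adjusted p = 0.0734), DESeq2 (0.0623) and only the 2 groups (0.0547), SQLE with only the 2 groups (0.0555), LSS with no filter (0.0513) and only the 2 groups (0.0661), and NSDHL with DESeq2 (0.052). The SCAP call at 6 h over 2 h was lost with no filter (0.0673). At an adjusted p under 0.01, genes called at 2 h over DMSO numbered 804 higher and 756 lower, and genes called higher at 6 h over 2 h numbered 1103. With 1 library left out, 776 to 1589 genes were higher and 751 to 1322 lower at 2 h over DMSO, and 1022 to 2171 were higher and 1262 to 2557 lower at 6 h over 2 h. The cause was not tested. With the replicate number as a block, the member counts were as without it (8 higher and 8 lower at 6 h over DMSO, 2 and 8 at 2 h over DMSO, 8 and 8 at 6 h over 2 h), and genes called were 2807 higher and 2879 lower at 6 h over DMSO, 1344 and 1314 at 2 h over DMSO, and 1756 and 2051 at 6 h over 2 h. Replicates of the same number did not deviate together (r = -0.0205 for 6 h and 2 h, -0.0381 for 6 h and DMSO, -0.0054 for 2 h and DMSO). With 2 libraries per group these values cannot decide whether the numbers pair the samples, and that is not known. With 2 libraries per group, the spread of a gene came mostly from all genes (42.8 prior against 3 residual degrees of freedom). Depth limits ACSS2 and TM7SF2 most. CYP51A1 also had few counts, but 80.6% of its exonic length is shared with another gene model on the same strand.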

Other observations

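Mitochondrial fatty acid oxidation, the pathway that opposes fatty acid synthesis, was measured through 13 genes. At 6 h over DMSO 2 were called higher and 2 lower (15.4% each way, against 18% and 18.6% of all tested genes), so 9 of the 13 were not called there. At 2 h over DMSO 1 was higher (7.69%, against 8.68%) and 0 lower (against 8.32%). At 6 h over 2 h 1 was higher (7.69%, against 11.1%) and 2 lower (15.4%, against 13.1%). The count of 0 was by edgeR, and it was also 0 at an unadjusted p under 0.05, by DESeq2 and by limma voom. CPT1A, the carnitine transferase that malonyl-CoA inhibits, changed by 0.38 ± 0.06 at 6 h over DMSO (adjusted p = 2.92e-06), 0.20 ± 0.06 at 2 h over DMSO (adjusted p = 0.0209) and 0.18 ± 0.06 at 6 h over 2 h (adjusted p = 0.0272). The CPT1A call at 2 h was lost by library size alone (0.0544) and without 6 h replicate 1 or 2 (0.0521 and 0.051) or 2 h replicate 1 or 2 (0.0758 and 0.274), and its call at 6 h over 2 h without 6 h replicate 1 or 2 (0.303 and 0.104) or 2 h replicate 1 or 2 (0.293 and 0.104). CPT2 was higher at 6 h over DMSO by 0.42 ± 0.11 (adjusted p = 0.00138). ETFDH, which passes electrons to the respiratory chain, was lower at 6 h over DMSO (-0.34, adjusted p = 0.0038) and over 2 h (-0.36, adjusted p = 0.00334), ECI2, an isomerase, was lower at 6 h over DMSO (-0.34, adjusted p = 0.0187). The ETFDH call at 6 h over DMSO was lost without DMSO replicate 2 (0.0551) and that over 2 h without 6 h replicate 1 (0.0519) or 2 h replicate 2 (0.0596), and the ECI2 call without 6 h replicate 1 or 2 (0.152 and 0.0728) or DMSO replicate 2 (0.055). HADHA, of the trifunctional protein, was lower at 6 h over 2 h (-0.15, adjusted p = 0.0373), a call lost by library size alone (0.274) and without 6 h replicate 1 or 2 (0.295 and 0.167) or 2 h replicate 1 or 2 (0.226 and 0.185).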
